A study of Phaseolus vulgaris with 24 samples.

Results

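The genes described here are 6 common bean (Phaseolus vulgaris) genes, of the 27213 in the count tables, that the study's annotation of primary metabolism places on the steps linking malate, citrate and acetyl-CoA. They are a subset of the genes on these steps, listed by ID, and were chosen with earlier results of these data known, although no value here was a threshold for membership. Phvul.003G209200 was assigned to the step between acetyl-CoA and malate, Phvul.001G001000 to glycolate and malate, Phvul.002G309600 to pyruvate and malate, Phvul.002G105000 and Phvul.004G011200 both to citrate and 2-oxoglutarate, and Phvul.003G118800 to the pyruvate to acetyl-CoA and the 2-oxoglutarate to succinate steps. The annotation gives a step and not an enzyme for each gene, so no enzyme name is attached to them. The study took its list of primary metabolism genes from genes that differed in these samples, with all 6 listed for Ispir leaf and Phvul.003G209200 also for TR43477 leaf, so that the calls in leaf are not independent evidence of a response.

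RNA was sequenced from leaf and root of hydroponically grown plants of 2 genotypes, Ispir, which the study calls salt-tolerant, and TR43477, which it calls salt-susceptible. Each was grown with NaCl raised in steps to 125 mM (salt) or with no added NaCl (control). The 8 groups were Ispir leaf salt, Ispir leaf control, TR43477 leaf salt, TR43477 leaf control, Ispir root salt, Ispir root control, TR43477 root salt and TR43477 root control, with 3 libraries in each. With 1 genotype in each class, tolerance cannot be told apart from any other difference between Ispir and TR43477.

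In plants, malate stands where several routes of carbon meet. Malate synthase joins acetyl-CoA to the glyoxylate that glycolate oxidase makes in photorespiration or that isocitrate lyase makes in the glyoxylate cycle, malic enzyme releases CO2 from malate to give pyruvate, and the pyruvate dehydrogenase complex turns pyruvate into acetyl-CoA. Citrate is carried to 2-oxoglutarate by aconitase and isocitrate dehydrogenase, which supplies the carbon skeleton for ammonium assimilation, and the 2-oxoglutarate dehydrogenase complex, which shares its dihydrolipoyl dehydrogenase subunit with the pyruvate complex, continues the cycle. Malate and citrate are also stored in the vacuole, where they balance the charge of cations.

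The libraries held 12163655 to 26416766 counts on genes, and each library was most like the others of its own group. The least alike was TR43477 leaf control replicate 3, with a mean correlation of 0.888 to its group. The tissue labels were checked with 10 leaf genes (light-harvesting and Rubisco genes). Their summed level was 1486 to 18405 CPM in leaf libraries and 3.76 to 58.2 CPM in root libraries. Of the 10, 3 to 6 were at 0 in root libraries, 1 to 3 in TR43477 leaf salt and 0 to 1 in Ispir leaf control. None was at 0 in the other leaf groups. No root marker was annotated. This sum was 1486 to 1856 CPM in TR43477 leaf salt, against 13407 to 18405 CPM in TR43477 leaf control, and 6646 to 13716 CPM in Ispir leaf salt, against 5429 to 18060 CPM in Ispir leaf control. In TR43477 root it was 3.76 to 4.96 CPM under salt, against 25.8 to 58.2 CPM in control. The study picked these leaf genes on the same samples, and the part of this difference in the results below was not tested. In bulk tissue, fewer cells of a type and less RNA per cell cannot be told apart.

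Levels are CPM (counts relative to the library total, scaled by TMM factors over all 24 libraries), given for replicates 1, 2 and 3 in turn. They are not divided by gene length, so each gene is compared with itself and not with the others. A difference was called where edgeR's quasi-likelihood test gave a Benjamini-Hochberg adjusted p under 0.01 over all genes tested and the absolute log2 difference was above 1, the study's own thresholds. The study names edgeR but not the test within it, and listed more genes in each leaf set than were called here. The calls here were 1073 genes in Ispir leaf and 1153 in TR43477 leaf, against 3296 and 3515 with edgeR's likelihood ratio test. In Ispir leaf, 1 of the 6 genes rose under salt (2.66% of all genes tested rose) and 1 fell (2.15%), 2 of 6 where 4.81% of all genes were called, and the salt and control libraries of all 6 did not overlap (40.4% of all genes). In TR43477 leaf 1 of the 6 rose (2.62% of all genes rose and 5.09% were called), and 3 did not overlap (42.1%). None of the 6 was called in Ispir root (4.06%) or TR43477 root (0.456%), where edgeR's unadjusted p was under 0.05 for 2 of them in Ispir (27.7% of all genes) and 1 in TR43477 (17.1%), and DESeq2 also called 0 in each (of all genes, 7.93% in Ispir root and 3.64% in TR43477 root). Groups did not overlap for 1 gene in Ispir root (34.6%) and 2 in TR43477 root (23.0%). At an adjusted p under 0.05, edgeR called all 6 in Ispir leaf (14.0% of all genes) and 3 in TR43477 leaf (14.0%), and DESeq2 at 0.01 called 6 in Ispir leaf (14.2%) and 3 in TR43477 leaf (16.1%).

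**Figure D1:**
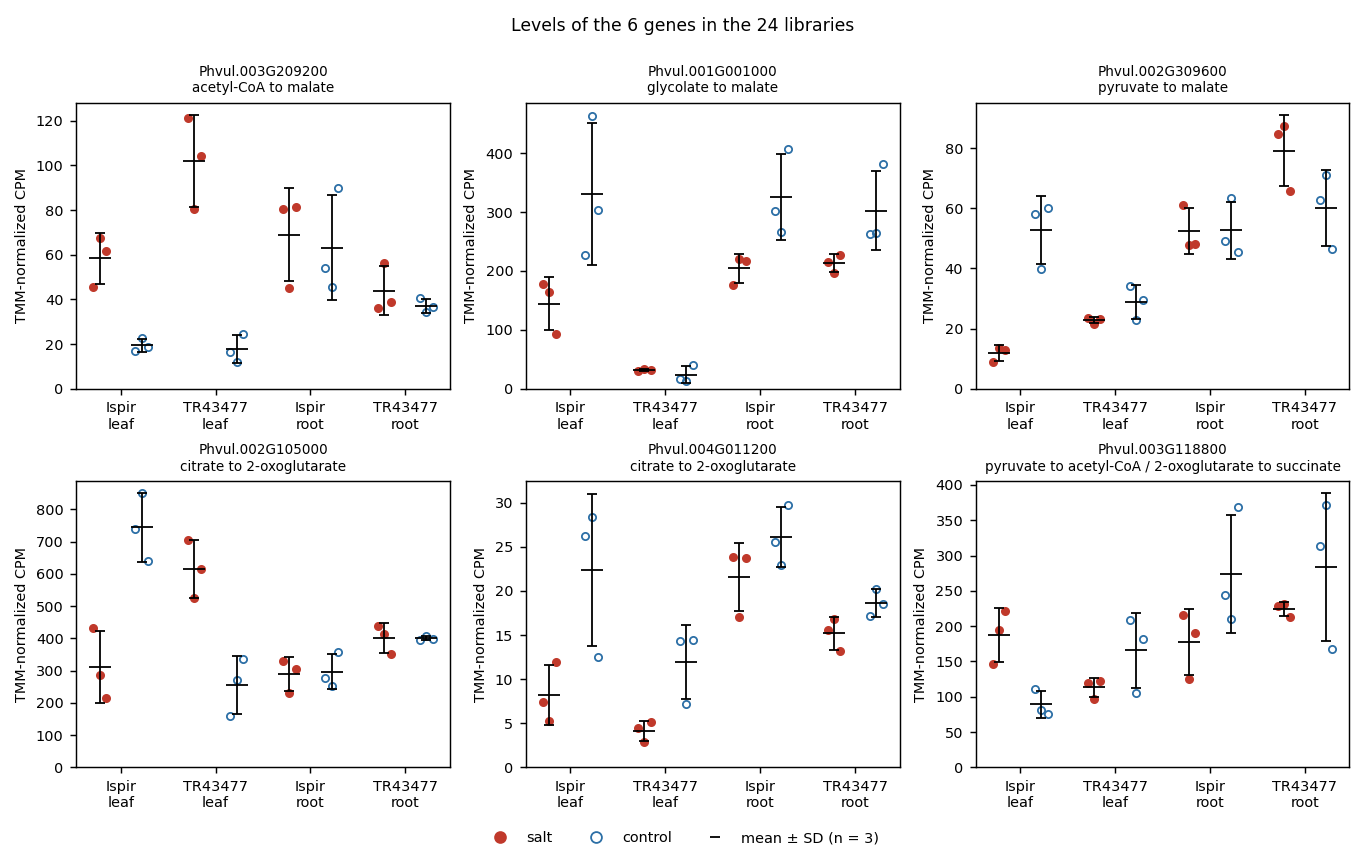
TMM-normalized CPM (y axis, starting at 0, with its own range for each gene) of the 6 genes in Ispir leaf, TR43477 leaf, Ispir root and TR43477 root. Filled points are salt libraries, open points control libraries, and lines the mean ± SD (n = 3). For Phvul.001G001000 the 6 TR43477 leaf libraries lie between 13.4 and 40.7 CPM, below all other libraries, and for Phvul.003G209200 the salt points lie above the control points in both leaf sets.

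Phvul.003G209200, on the step between acetyl-CoA and malate, rose under salt in the leaf of both genotypes. It lies on chromosome 3 (43515634 to 43519070, plus strand, in the coordinates of genome v2.1 given in the files). Its level was 45.7, 67.7 and 61.6 CPM in Ispir leaf salt, against 17.0, 22.6 and 18.8 CPM in Ispir leaf control, a mean of 58.4 ± 11.4 against 19.5 ± 2.87 CPM (SD, n = 3 each). In TR43477 leaf it was 121, 80.6 and 104 CPM under salt, against 16.4, 12.1 and 24.5 CPM in control, a mean of 102 ± 20.5 against 17.7 ± 6.27 CPM (SD, n = 3 each). The lowest salt library was above the highest control library in each genotype. The difference was 1.57 on the log2 scale (SE 0.20, 2.97-fold, edgeR adjusted p = 0.0042) in Ispir and 2.54 (SE 0.31, 5.82-fold, edgeR adjusted p = 0.0045) in TR43477. The Ispir response minus the TR43477 response was -0.97 (SE 0.36, adjusted p = 0.088 for the genotype by salt interaction), so the responses were not shown to differ.

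Both leaf calls of Phvul.003G209200 lost their adjusted p when single libraries were left out, while the direction and a log2 difference above 1 remained. In Ispir leaf the edgeR adjusted p was 0.014 without control replicate 2, 0.025 without salt replicate 2 and 0.022 without salt replicate 3. In TR43477 leaf it was 0.012 without control replicate 1, and 0.030, 0.022 and 0.028 without salt replicates 1, 2 and 3 in turn. Calls over all genes fell in most of the same fits, to 1.12%, 0.410% and 0.701% of the genes tested in those of Ispir leaf, and in TR43477 leaf to 0.111%, 0.142% and 0.133% without the salt replicates, against 4.91% without control replicate 1.

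In root the same gene was not called under salt. It had 80.3, 45.2 and 81.6 CPM in Ispir root salt, against 53.9, 45.7 and 90.0 CPM in Ispir root control, and these sets overlap. In TR43477 root it had 36.3, 56.5 and 38.9 CPM under salt, against 40.5, 34.2 and 36.7 CPM in control, which overlap as well. The log2 differences were 0.10 (SE 0.30, adjusted p = 0.86) in Ispir and 0.21 (SE 0.18, adjusted p = 0.62) in TR43477. The leaf response minus the root response was 2.28 (SE 0.38, edgeR adjusted p = 0.0046) in TR43477, which was called (1 of the 6 genes, higher, where 1.70% of all genes were called higher and 3.42% in all), and 1.47 (SE 0.40, adjusted p = 0.034) in Ispir, which was not. The TR43477 call was lost without leaf salt replicate 1 (adjusted p = 0.016), leaf salt replicate 3 (0.014), root control replicate 1 (0.014), root salt replicate 1 (0.016) or root salt replicate 3 (0.017), where 1.29% to 1.62% of all genes were called. It was also lost with the replicate number as a block (0.015, with 1.40% of all genes called). The study took RNA from leaf and root of 3 plants a group, but which libraries share a plant is not stated. The main tests did not pair them.

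In control plants Phvul.003G209200 had lower levels in leaf than in root, a difference called in Ispir. The leaf to root difference of control plants was -1.75 on the log2 scale in Ispir (SE 0.28, edgeR adjusted p = 0.0017, called, and kept when each library was left out). It was -1.003 in TR43477 (SE 0.29, adjusted p = 0.034, not called), with an adjusted p of 0.0043 without TR43477 leaf control replicate 3. Under salt the leaf and root libraries of Ispir overlapped, and those of TR43477 leaf (80.6 to 121 CPM) were all above those of TR43477 root (36.3 to 56.5 CPM), a comparison of levels with no test. Between genotypes the control levels overlapped in leaf (log2 Ispir over TR43477 0.17, adjusted p = 0.75). They did not overlap in root (0.78, SE 0.25), with an adjusted p of 0.10.

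Phvul.001G001000, on the step between glycolate and malate (chromosome 1, 48548 to 51335, minus strand), had TR43477 leaf libraries that lay below those of every other group. Its level was 226, 463 and 303 CPM in Ispir leaf control, against 17.4, 13.4 and 40.7 CPM in TR43477 leaf control, a mean of 331 ± 121 against 23.9 ± 14.8 CPM (SD, n = 3 each). The lowest Ispir library was more than 5 times the highest TR43477 library. In root the genotypes overlapped, with 302, 266 and 407 CPM in Ispir root control, against 262, 264 and 381 CPM in TR43477 root control.

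The leaf genotype difference of this gene was 3.83 on the log2 scale (SE 0.54, 14.2-fold), but its edgeR adjusted p of 0.017 did not pass 0.01, and 0 of the 6 genes were called in this comparison (0.535% of all genes). The unadjusted p was under 0.05 for 4 of the 6 (24.0% of all genes), DESeq2 called 2 (9.61%), and 1 passed edgeR at an adjusted p under 0.05 (5.05%). Control leaf groups of the genotypes did not overlap for 3 of the 6 (30.5%). Without TR43477 leaf control replicate 3, its highest library in that group, the difference was 4.44 and the adjusted p 0.0098. The genotype difference in root was 0.12 (SE 0.23, adjusted p = 0.78). Set against root, the genotype difference in control leaf was 3.66 larger (SE 0.60, adjusted p = 0.012, not called, and 0.0023 without TR43477 leaf control replicate 3). This comparison was added after these values were seen, and it called 0 of the 6 (0.487% of all genes), with an unadjusted p under 0.05 for 3 (17.7%), 2 at an adjusted p under 0.05 (2.91%) and 2 by DESeq2 (4.67%).

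Within TR43477 the gene was lower in leaf than in root, by -3.60 on the log2 scale (SE 0.50, 12.1-fold, edgeR adjusted p = 0.0021). This was the 1 of the 6 genes called between the tissues of TR43477 control plants (22.6% of all genes were called, 10.9% as lower), and the call held when each library was left out. The tissues did not overlap for 5 of the 6 (55.2%), all 5 lower in leaf, 2 were called at an adjusted p under 0.05 (36.0%), and DESeq2 called 3 (34.9%). In Ispir the leaf and root control levels overlapped (-0.03, SE 0.30, adjusted p = 0.93). The low level of TR43477 leaf was also there under salt, with 30.5, 33.0 and 31.2 CPM. These lie below 177, 164 and 92.9 CPM in Ispir leaf salt.

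In edgeR's quasi-likelihood test salt did not give a called difference for Phvul.001G001000 in any of the 4 comparisons. At the same thresholds it was called in Ispir leaf by DESeq2 (-1.19, adjusted p = 0.006) and by edgeR's likelihood ratio test (-1.20, adjusted p = 0.0093). Those tests called all 6 genes there, where DESeq2 called 14.2% of all genes and the likelihood ratio test 14.8%. Means were 145 ± 45.4 CPM in Ispir leaf salt and 331 ± 121 CPM in Ispir leaf control (-1.20, SE 0.34, quasi-likelihood adjusted p = 0.049), with no overlap. In TR43477 leaf they were 31.6 ± 1.32 CPM under salt and 23.9 ± 14.8 CPM in control (0.41, SE 0.41, adjusted p = 0.50), with overlap. In both roots all 3 salt libraries lay below all 3 control libraries. Ispir root had 176, 220.5 and 216 CPM under salt, against 302, 266 and 407 CPM in control (-0.69, SE 0.20, adjusted p = 0.068), and TR43477 root had 216, 197 and 227 CPM under salt, against 262, 264 and 381 CPM in control (-0.54, SE 0.19, adjusted p = 0.22). The Ispir minus TR43477 response in leaf was -1.63 (SE 0.56, adjusted p = 0.069, and 0.0090 without TR43477 leaf control replicate 3).

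Phvul.002G309600, on the step between pyruvate and malate (chromosome 2, 47693436 to 47698576, minus strand), fell in Ispir leaf. Its level was 8.74, 13.7 and 13.0 CPM in Ispir leaf salt, against 58.1, 39.6 and 60.1 CPM in Ispir leaf control, a mean of 11.8 ± 2.68 against 52.6 ± 11.3 CPM (SD, n = 3 each). The 3 salt libraries were the lowest 3 of all 24. The log2 difference was -2.17 (SE 0.25, 4.48-fold, edgeR adjusted p = 0.0031), and the adjusted p was 0.020 without salt replicate 2 and 0.018 without salt replicate 3, where 0.410% and 0.701% of all genes were called.

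In TR43477 leaf this gene had 23.5, 21.6 and 23.0 CPM under salt, against 34.2, 22.7 and 29.6 CPM in control (-0.33, SE 0.19, adjusted p = 0.26), and the groups overlapped. The Ispir response minus the TR43477 response in leaf was -1.83 (SE 0.32, edgeR adjusted p = 0.0048). Together with Phvul.002G105000 this made 2 of the 6 genes called for the genotype by salt interaction of leaf, both with an Ispir response below that of TR43477 (2.04% of all genes were called lower and 5.14% in all). DESeq2 called 3 (14.3%). The call of Phvul.002G309600 was lost without Ispir leaf control replicate 1 (adjusted p = 0.011), without Ispir leaf salt replicate 2 (0.012) or 3 (0.013), and without TR43477 leaf salt replicate 1 (0.016), 2 (0.014) or 3 (0.016). In these fits 1.25% to 3.46% of all genes were called.

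In root Phvul.002G309600 had 61.2, 47.9 and 48.1 CPM in Ispir root salt, against 49.0, 63.3 and 45.5 CPM in Ispir root control, with a log2 difference of -0.03 (SE 0.17, adjusted p = 0.93). TR43477 root had 84.5, 87.3 and 65.7 CPM under salt, against 62.8, 71.0 and 46.4 CPM in control (0.37, SE 0.18, adjusted p = 0.35). Both pairs overlapped. The leaf response minus the root response in Ispir was -2.14 (SE 0.32, edgeR adjusted p = 0.0021). It was the 1 of the 6 genes called for this interaction (2.81% of all genes were lower and 4.55% called), and the call held when each of the 12 libraries was left out in turn, with adjusted p from 0.0021 to 0.0086. At an adjusted p under 0.05 it was joined by 3 more, 4 of 6 (11.5%), and DESeq2 called 3 (10.6%). In TR43477 these rules gave 2 (9.20%) and 2 (10.1%). In TR43477 the same interaction was -0.74 (SE 0.28, adjusted p = 0.12).

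Control levels of Phvul.002G309600 in Ispir were close in both tissues, 52.6 ± 11.3 CPM in leaf and 52.6 ± 9.43 CPM in root (SD, n = 3 each, log2 difference -0.05, SE 0.22). In TR43477 they were 28.8 ± 5.80 CPM in leaf and 60.1 ± 12.5 CPM in root, with no overlap (-0.99, SE 0.24, adjusted p = 0.019, not called). The control leaves of Ispir lay above those of TR43477 without overlap (0.90, SE 0.26), with an adjusted p of 0.095.

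**Figure D2:**
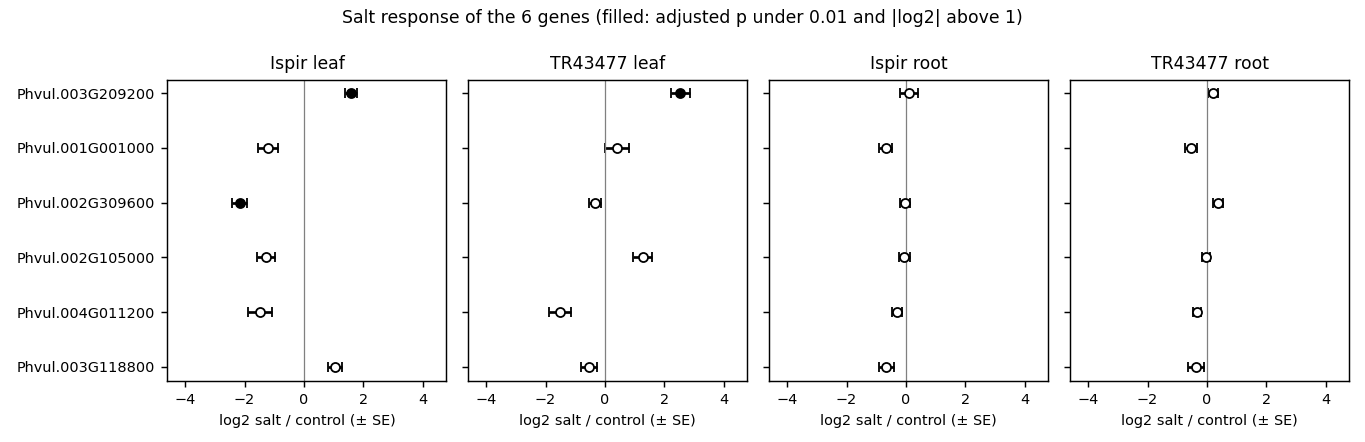
Log2 ratio of salt over control (x axis, ± SE from edgeR) of the 6 genes in Ispir leaf, TR43477 leaf, Ispir root and TR43477 root. Filled points passed adjusted p under 0.01 with an absolute log2 ratio above 1, which holds for 2 genes in Ispir leaf and 1 in TR43477 leaf. In root all 12 points lie between -0.69 and 0.37.

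Of the genes on the citrate to 2-oxoglutarate step, Phvul.002G105000 (chromosome 2, 22335199 to 22343545, minus strand) differed in its leaf response between genotypes, with lower salt levels in Ispir and higher ones in TR43477. It had 431, 287 and 214 CPM in Ispir leaf salt, against 741, 852 and 640.0 CPM in Ispir leaf control. In TR43477 leaf it had 706, 527 and 614 CPM under salt, against 159.7, 272 and 337 CPM in control. Neither pair overlapped. Each response alone missed the adjusted threshold, at -1.27 (SE 0.30, edgeR adjusted p = 0.028) in Ispir and 1.27 (SE 0.32, adjusted p = 0.042) in TR43477.

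The Ispir minus TR43477 response of Phvul.002G105000 in leaf was -2.54 on the log2 scale (SE 0.45, edgeR adjusted p = 0.0050, called). The call was lost, with adjusted p of 0.010 to 0.018, without Ispir leaf control replicate 1 or 2 (0.010 and 0.015), Ispir leaf salt replicate 2 or 3 (0.018 and 0.015), or TR43477 leaf salt replicate 1, 2 or 3 (0.017, 0.013 and 0.016), while the difference stayed between -2.34 and -2.65 in these fits, which called 1.25% to 3.46% of all genes. In root the gene averaged 289.6 ± 52.0 CPM in Ispir salt and 296 ± 54.3 CPM in Ispir control, and 401 ± 45.8 CPM in TR43477 salt and 400.0 ± 6.32 CPM in TR43477 control (SD, n = 3 each). These root differences were -0.06 (SE 0.19) in Ispir and -0.03 (SE 0.14) in TR43477.

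In control plants of Ispir, Phvul.002G105000 was higher in leaf, at 744 ± 106 CPM, than in root, at 296 ± 54.3 CPM (log2 difference 1.28, SE 0.21, edgeR adjusted p = 0.0020). It was 1 of 3 genes of the 6 called between these tissues, 1 higher and 2 lower in leaf (16.7% of all genes were higher, 23.2% lower and 39.8% called), and 3 of the 6 did not overlap (69.7%). DESeq2 also called 3 (44.7%). The adjusted p was 0.015 without root control replicate 1 of Ispir and 0.013 without its root control replicate 2 (29.8% of all genes called in each), and 0.012 with the replicate number as a block (33.4%). In TR43477 the control means were 256 ± 89.7 CPM in leaf and 400.0 ± 6.32 CPM in root, with no overlap (-0.57, SE 0.33, adjusted p = 0.21). Ispir leaf control lay above TR43477 leaf control (1.56, SE 0.36, adjusted p = 0.059), without overlap and without a call.

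Phvul.004G011200, assigned to the same step (chromosome 4, 1919514 to 1928267, plus strand), had lower salt than control levels in the leaf of both genotypes. It had 7.45, 5.23 and 11.9 CPM in Ispir leaf salt, against 26.3, 28.4 and 12.5 CPM in Ispir leaf control, and 4.43, 2.85 and 5.14 CPM in TR43477 leaf salt, against 14.4, 7.14 and 14.4 CPM in TR43477 leaf control. Neither pair overlapped, but Ispir leaf salt replicate 3 lay just under Ispir leaf control replicate 3. The log2 differences were -1.47 (SE 0.41, adjusted p = 0.048) in Ispir and -1.52 (SE 0.38, adjusted p = 0.039) in TR43477, neither of them called. The difference between these responses was 0.06 (SE 0.58, adjusted p = 1.0), an SE wide enough that a difference of more than 1 on the log2 scale could have been missed.

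In root Phvul.004G011200 averaged 21.5 ± 3.85 CPM in Ispir salt and 26.1 ± 3.43 CPM in Ispir control (-0.30, SE 0.17, adjusted p = 0.28). The TR43477 means were 15.2 ± 1.86 CPM under salt and 18.7 ± 1.57 CPM in control, without overlap (-0.33, SE 0.14, adjusted p = 0.30). Ispir root control was above TR43477 root control without overlap (0.50, SE 0.14, adjusted p = 0.068). It had the fewest counts of the 6 genes, 44 in its lowest library.

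Since the citrate genes share a step, the ratio of their CPM was taken within each library. This ratio restates the levels given above and is not separate evidence of a response. It was 159, 185 and 119 in TR43477 leaf salt, against 11.1, 38.0 and 23.4 in TR43477 leaf control, 7.08-fold higher under salt in geometric mean. The lowest salt ratio was thus above the highest control ratio (exact two-sided permutation p = 0.10, the smallest that 3 against 3 allows). In Ispir leaf it was 57.9, 54.8 and 17.9 under salt, against 28.2, 30.0 and 51.2 in control (exact permutation p = 0.80), and these overlap. In root the salt ratios were 13.5 ± 0.501 in Ispir and 26.4 ± 1.90 in TR43477, against 11.3 ± 0.618 in Ispir control and 21.5 ± 1.48 in TR43477 control (SD, n = 3 each, exact permutation p = 0.10 in each genotype). Salt and control ratios did not overlap in the root of either genotype. Gene length cancels in the comparison of this ratio between groups, but its absolute size does depend on the lengths.

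Phvul.003G118800, assigned to both the pyruvate to acetyl-CoA and the 2-oxoglutarate to succinate steps (chromosome 3, 30197489 to 30200396, minus strand), had higher salt than control levels in Ispir leaf and not elsewhere. It had 146, 194 and 222 CPM in Ispir leaf salt, against 111, 80.7 and 76.2 CPM in Ispir leaf control, with no overlap (log2 difference 1.06, SE 0.24, edgeR adjusted p = 0.024, not called). In TR43477 leaf it had 119.7, 97.3 and 123 CPM under salt, against 209, 106 and 182 CPM in control, which overlap (-0.53, SE 0.27, adjusted p = 0.21). The Ispir minus TR43477 response was 1.60 (SE 0.37, adjusted p = 0.016, not called, and 0.0050 without TR43477 leaf control replicate 2).

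Root levels of Phvul.003G118800 averaged 177 ± 46.6 CPM in Ispir salt and 274 ± 83.7 CPM in Ispir control (-0.66, SE 0.26, adjusted p = 0.15). In TR43477 root they averaged 224 ± 9.81 CPM under salt and 284 ± 105 CPM in control (-0.37, SE 0.26, adjusted p = 0.54). Both pairs overlapped. In Ispir control plants the gene was lower in leaf than in root (-1.67, SE 0.28, 3.17-fold, edgeR adjusted p = 0.0020), a call that held when each library was left out. The leaf minus root response in Ispir was 1.71 (SE 0.39, adjusted p = 0.016, not called, and 0.0087 without Ispir leaf control replicate 1).

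**Figure D3:**
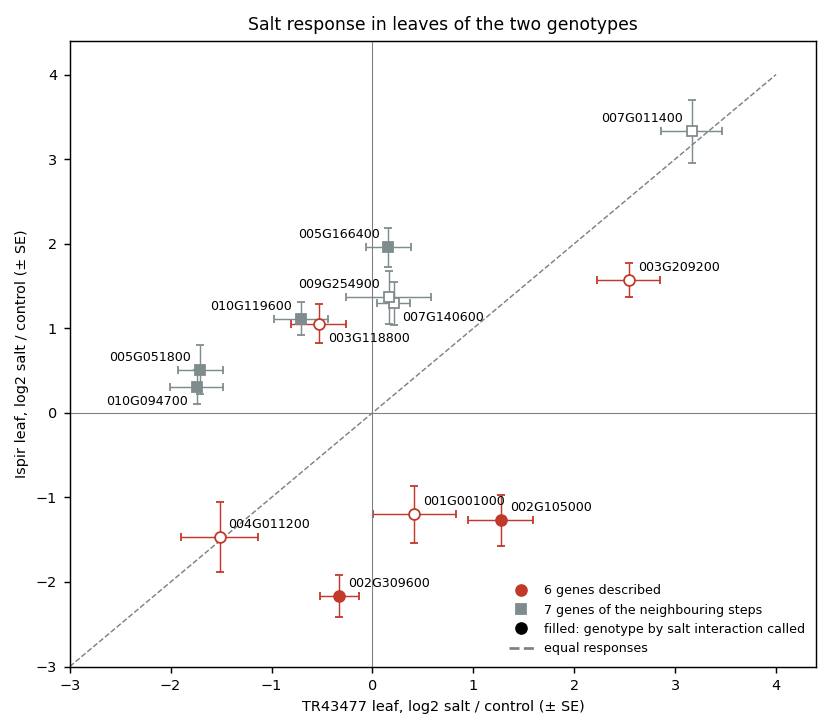
Log2 ratio of salt over control in Ispir leaf (y axis, ± SE) and in TR43477 leaf (x axis, ± SE) for the 6 genes (circles) and the 7 genes of the neighbouring steps (squares), with gene names shortened by their common first part. Filled symbols were called for the genotype by salt interaction, and the dashed line marks equal responses. The 2 filled circles lie below that line and the 4 filled squares above it.

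The 6 genes did not share a pattern across the 24 libraries. Pearson's r between pairs of them, over log2 CPM and as a description, ran from -0.50 (Phvul.002G105000 and Phvul.003G118800) to 0.68 (Phvul.001G001000 and Phvul.004G011200). The first of these pairs gave -0.8 over the 12 leaf and 0.52 over the 12 root libraries, and the second 0.51 and 0.4. Phvul.004G011200 and Phvul.003G209200 gave -0.26 over all 24, with -0.71 in leaf and 0.71 in root. The citrate genes gave -0.15, with 0.07 over the 12 leaf and -0.32 over the 12 root libraries. The points share tissue, genotype and treatment, and are not independent.

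The order of the 8 group means differed from gene to gene. Ispir leaf control was the highest group for Phvul.001G001000 and Phvul.002G105000 and the lowest for Phvul.003G118800. TR43477 leaf control was the lowest for Phvul.001G001000, Phvul.002G105000 and Phvul.003G209200. The lowest for Phvul.002G309600 was Ispir leaf salt and for Phvul.004G011200 TR43477 leaf salt. The highest group mean over the lowest was 13.9 for Phvul.001G001000, 6.70 for Phvul.002G309600, 6.30 for Phvul.004G011200, 5.77 for Phvul.003G209200, 3.19 for Phvul.003G118800 and 2.90 for Phvul.002G105000. Most neighbours in these orders overlapped. For Phvul.003G118800 all 7 pairs of neighbouring groups did, and for Phvul.003G209200 there was a gap only between TR43477 root control and Ispir leaf control. For Phvul.001G001000 there were gaps between TR43477 root control and TR43477 root salt and between Ispir leaf salt and TR43477 leaf salt.

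**Figure D4:**
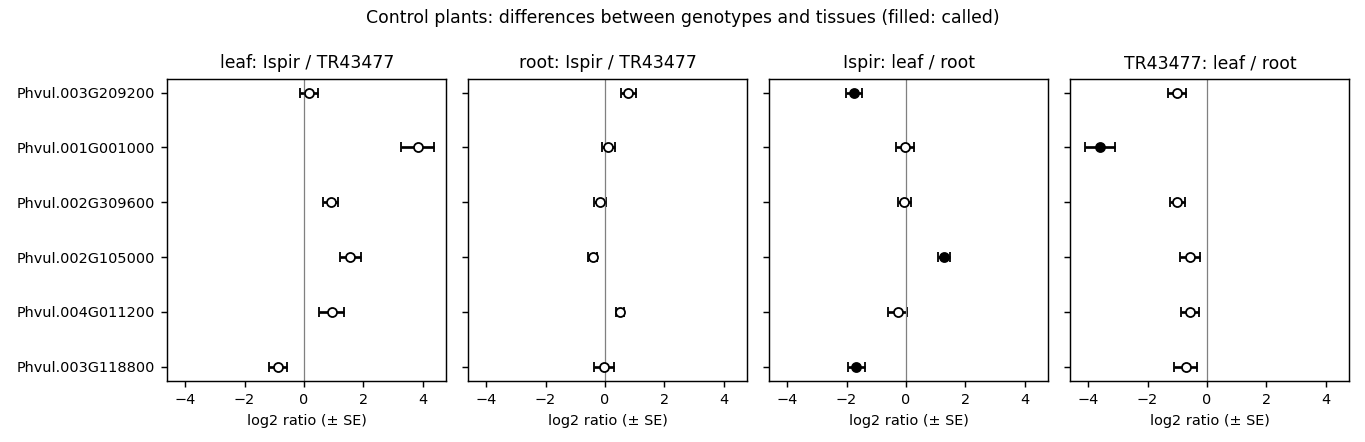
Log2 ratios in control plants (x axis, ± SE from edgeR) of the 6 genes, for Ispir over TR43477 in leaf and in root and for leaf over root in Ispir and in TR43477. Filled points were called: none between genotypes, 3 genes between the tissues of Ispir and 1 between those of TR43477. The point farthest to the right is Phvul.001G001000 in leaf, 3.83 with an SE of 0.54.

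Between the control roots of the genotypes 0 of the 6 genes were called (2.07% of all genes), 3 had an unadjusted p under 0.05 in edgeR (25.7%), 3 did not overlap (32.9%), and DESeq2 called 0 (6.57%). For the genotype by salt interaction of root 0 of the 6 were called by edgeR (0% of all genes) or DESeq2 (1.05%), and 0 had an unadjusted p under 0.05 (12.3%). The 6 interaction estimates in root lay between -0.41 and 0.02 on the log2 scale, with SE up to 0.40.

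The same annotation holds 7 further genes on these or adjoining steps, which give the setting of the 6. These 7, like the 6, come from the list of genes that differed in these samples. Their calls, and medians away from that of all genes, are therefore not independent evidence of a response. The 6 were set apart from the 7 with earlier results known, so the contrast between these lists is a description. The alternative fits were examined for the 6 and not for the 7. For salt in TR43477 leaf, a fit with the replicate number as a block called 0 of all genes, so the calls of the 7 there were lost in it. Without a single salt replicate of TR43477 leaf, 0.111% to 0.142% of all genes were called. Under salt 2 of the 7 rose in Ispir leaf (2.66% of all genes), and 1 rose (2.62%) and 2 fell (2.46%) in TR43477 leaf. In Ispir root 1 rose (2.57%), and in TR43477 root 0 were called (0.456%). In TR43477 root edgeR's unadjusted p was under 0.05 for 2 of the 7 (17.1% of all genes). For the genotype by salt interaction of leaf, 4 of the 7 were called, all with an Ispir response above the TR43477 response (3.10% of all genes). The 2 called among the 6 genes had an Ispir response below the TR43477 response (2.04%). This orders the responses and not the levels, and it can come from a fall in TR43477. The median of this interaction was -1.30 over the 6 genes and 1.81 over the 7, and -0.03 over all genes tested. Median salt responses in Ispir leaf were -1.24 over the 6 and 1.30 over the 7, and -0.09 over all genes. In TR43477 leaf they were 0.04, 0.16 and -0.09.

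On the pyruvate to malate step, 1 gene rose, 1 fell and 1 was not called in Ispir leaf. Phvul.005G166400 had 577, 770.5 and 842 CPM under salt, against 166, 169 and 226 CPM in control, a rise of 1.96 (SE 0.24, edgeR adjusted p = 0.0034), where Phvul.002G309600 fell by 2.17. In TR43477 leaf Phvul.005G166400 differed by 0.16 (SE 0.22, adjusted p = 0.63), and its interaction in leaf was 1.81 (SE 0.33, adjusted p = 0.0056, called). The other gene of the step, Phvul.010G094700, named after its values were seen, differed by 0.30 (SE 0.20, adjusted p = 0.32) in Ispir leaf and fell by 1.74 (SE 0.26, edgeR adjusted p = 0.0082) in TR43477 leaf, with an interaction of 2.06 (SE 0.33, adjusted p = 0.0034, called).

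On the glycolate to malate step, Phvul.005G051800 was higher in leaf than in root in both genotypes, unlike Phvul.001G001000. In control plants it had 1176 ± 265 CPM in Ispir leaf and 4.15 ± 2.02 CPM in Ispir root, and 1994 ± 166 CPM in TR43477 leaf and 19.2 ± 22.7 CPM in TR43477 root (SD, n = 3 each), with log2 leaf over root of 8.09 and 6.76, both called. Under salt it fell in TR43477 leaf, to 606 ± 29.0 CPM (-1.71, SE 0.22, edgeR adjusted p = 0.0053), and differed by 0.51 (SE 0.29, adjusted p = 0.26) in Ispir leaf.

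Phvul.007G011400, on the 2-oxoglutarate to succinate step that Phvul.003G118800 shares, rose in both leaf sets and in Ispir root. Its means were 23.3 ± 11.2 CPM in Ispir leaf salt and 2.29 ± 0.0856 CPM in Ispir leaf control (3.33, SE 0.37, edgeR adjusted p = 0.0027), and 29.4 ± 2.29 CPM in TR43477 leaf salt and 3.30 ± 1.12 CPM in TR43477 leaf control (3.16, SE 0.30, adjusted p = 0.0026). In Ispir root they were 16.8 ± 4.55 CPM under salt and 1.77 ± 0.488 CPM in control (3.23, SE 0.31, adjusted p = 0.0013), and in TR43477 root 3.13 ± 1.26 CPM under salt and 0.987 ± 0.493 CPM in control (1.63, SE 0.51, adjusted p = 0.16).

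For each of the 6, the most alike of the other 58 genes of the study's primary metabolism list was found by Pearson's r of log2 CPM over the 24 libraries, as a description. Phvul.002G309600 was most like Phvul.007G047600, on the phosphoenolpyruvate to pyruvate step, with r = 0.89 (0.78 in the 12 leaf and 0.70 in the 12 root libraries), and 2 of 20189 genes were at least as alike. Phvul.004G011200 was most like Phvul.011G012000, listed for threonine (0.83, with 0.79 in leaf and 0.33 in root libraries, and 115 genes at least as alike). Phvul.003G118800 was most like Phvul.007G110900, on the phosphoenolpyruvate to pyruvate step (0.81, with 0.9 in leaf and 0.4 in root, and 243 genes). For Phvul.003G209200 it was Phvul.001G076400, listed for glutamate (0.74, and 107 genes). That likeness was one of leaf only, with 0.89 in leaf and -0.36 in root libraries. Phvul.002G105000 was most like Phvul.009G075100, listed for valine and isoleucine (0.62, with 0.89 in leaf and -0.03 in root libraries, and 138 genes). Phvul.001G001000 was most like Phvul.002G061200, on the sucrose to fructose and glucose step, but only at 0.59. This r was 0 in leaf and 0.7 in root libraries, and 2131 genes were at least as alike.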

How the data were processed

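RNA from leaf and root of 3 plants per genotype and treatment was sequenced as stranded poly(A) libraries, 24 in 8 groups. Reads were trimmed (Trimmomatic), aligned to genome v2.1 of P. vulgaris (HISAT2) and counted per gene (SeqMonk) by the authors, who deposited count values without normalization. Rules for strand and multiply mapped reads are not given in the sources used here, so genes with near-identical copies may share reads. None of the 6 gene spans overlapped another gene. The deposited p-value and FDR columns and the deposited log2 fold change column hold the authors' own edgeR comparisons of salt with control and were not used.

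Groups were taken from the deposited labels. The analysis used edgeR 4.0.16 in R 4.3.3 (TMM, glmQLFit and glmQLFTest, genes with a summed count of 1 or more in the fit, two-sided, Benjamini-Hochberg over all genes of the fit) and limma 3.58.1. The SE is the absolute log2 difference divided by the square root of F. Salt was compared with control in each genotype and tissue (6 libraries a fit), and genotypes and tissues in control plants. Interactions were fitted over 12 libraries. Alternatives were DESeq2 1.42.0, edgeR's likelihood ratio test, other filters, normalizations and thresholds, all 24 libraries in 1 fit, a replicate block, and leaving out each library. The fits were tested on simulated data.

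The members and lists were chosen with earlier results of these data known. The 6 genes are given in full. Of the 7 neighbouring genes, the 3 with the smallest adjusted p in a salt response are named, and for likeness 1 gene per member. Phvul.010G094700 was added after its values were seen, and the other 3 appear only as counts and in a figure. With 3 plants a group, edgeR's p-values set a difference against the spread between these plants, with dispersions moderated over all genes.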

Additional observations from a re-analysis of the deposited data

Results flagged for a closer look

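Salt responses that differed between genotypes or tissues by a test of the difference itself concerned 3 of the 6 genes. Over all genes, 5.14% were called for genotype by salt in leaf and 0% in root. For tissue by salt, 4.55% were called in Ispir and 3.42% in TR43477. In leaf, the Ispir response minus the TR43477 response was -2.54 on the log2 scale for Phvul.002G105000 (SE 0.45, edgeR adjusted p = 0.0050), with Ispir salt below Ispir control in 3 of 3 libraries and TR43477 salt above TR43477 control in 3 of 3. It was -1.83 for Phvul.002G309600 (SE 0.32, adjusted p = 0.0048). Both of these calls were lost in several of the fits that left out a single library, as given above.

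The leaf response minus the root response was -2.14 for Phvul.002G309600 in Ispir (SE 0.32, edgeR adjusted p = 0.0021) and 2.28 for Phvul.003G209200 in TR43477 (SE 0.38, adjusted p = 0.0046). The Ispir call held when each library was left out, and the TR43477 call was lost in several of those fits and with the replicate block. The leaf arm of each TR43477 comparison includes libraries whose summed leaf marker level was 1486 to 1856 CPM under salt, against 13407 to 18405 CPM in control, and the part of this in these differences was not tested.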

How the results depend on the processing

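None of the 11 called results of the 6 genes, of 78 in all, reversed under any alternative, but a call already required an absolute log2 difference above 1. A kept sign is therefore weak evidence that these results are stable. Called results lost their call in 29 outcomes leaving out 1 library and in 3 under the other alternatives. The numbers of the 6 genes called moved as follows, with the share of all genes called by the same fit in brackets where the shares are not given above. In Ispir leaf under salt (2) they were 6 with DESeq2, the likelihood ratio test (14.8%) or an adjusted p under 0.05, 4 with all 24 libraries in 1 fit (10.1%), and 0 to 2 leaving out 1 library (0.410% to 6.41%). In TR43477 leaf under salt (1) they were 3 with DESeq2, the likelihood ratio test (15.5%), an adjusted p under 0.05 or the 24-library fit (16.7%), and 0 to 1 leaving out 1 library (0.111% to 9.34%). For the genotype by salt interaction of leaf (2) the range without 1 library was 0 to 3 (1.25% to 6.65%). For genotype in control leaf (0) they were 2 with DESeq2, the likelihood ratio test (8.28%) or the 24-library fit (13.3%), 1 at adjusted p under 0.05 and 0 to 1 without 1 library (0% to 0.448%). For tissue in TR43477 (1) they were 3 with DESeq2 or the 24-library fit (38.6%), 2 at 0.05 and 1 to 2 without 1 library (10.9% to 29.0%), and for tissue in Ispir (3) 2 to 3 without 1 library (29.8% to 42.2%). For tissue and salt in Ispir (1) they were 3 with DESeq2 or the likelihood ratio test (10.9%), 4 at 0.05 and 1 to 2 without 1 library (1.98% to 6.33%), and in TR43477 (1) 2 with DESeq2 or at 0.05 and 0 to 2 without 1 library (1.29% to 5.83%). For genotype and tissue in control plants (0, added after seeing the data) they were 2 with DESeq2, the likelihood ratio test (4.29%), 0.05 or the 24-library fit (3.53%), and 0 to 1 without 1 library (0.0655% to 0.676%).

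Replicate numbers were not used to pair the samples, since correlations of same-numbered deviations ran from -0.18 to 0.38 and no pair of groups had all 3 above 0.1, although this does not show that leaf and root came from different plants. With a replicate block, 0 of the 6 were called in TR43477 leaf (Phvul.003G209200 adjusted p = 0.020), where the block called 0 of all 22672 genes against 1153 without it. It called 0 of the 6 for tissue and salt in TR43477 (Phvul.003G209200 0.015, with 1.40% of all genes called), and Phvul.002G105000 had 0.012 between the tissues of Ispir (33.4%). The block turned the leaf interaction of Phvul.004G011200 to -0.057.

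Signs turned only for 16 results whose main log2 difference was at most 0.27 in size, none of them called, and the cause was not tested. For all 24 libraries in 1 fit these were Phvul.002G105000 in TR43477 root (0.0027), and Phvul.001G001000 (0.024, and 0.023 with DESeq2) and Phvul.002G309600 (4.3e-04, and 0.0011 with DESeq2) between the tissues of Ispir. Leaving out 1 library, the ranges were -0.13 to 0.13 for Phvul.002G309600, -0.086 to 0.44 for Phvul.003G209200 and -0.16 to 0.094 for Phvul.002G105000 under salt in Ispir root, and -0.093 to 0.060 for Phvul.002G105000 in TR43477 root. For the leaf interaction the range was -0.32 to 0.31 for Phvul.004G011200. For that in root the ranges were -0.074 to 0.13 for Phvul.004G011200, -0.37 to 0.038 for Phvul.001G001000, -0.14 to 0.12 for Phvul.002G105000 and -0.31 to 0.23 for Phvul.003G209200. Between genotypes they were -0.027 to 0.47 for Phvul.003G209200 in leaf, and -0.29 to 0.19 for Phvul.003G118800 and -0.065 to 0.33 for Phvul.001G001000 in root. Between the tissues of Ispir they were -0.27 to 0.28 for Phvul.001G001000, -0.15 to 0.19 for Phvul.002G309600 and -0.43 to 0.067 for Phvul.004G011200, and for tissue and salt in TR43477 -0.44 to 0.065 for Phvul.003G118800. With 3 libraries a group, a log2 difference near 1 can miss the adjusted threshold, as Phvul.002G105000 did at 1.27 in TR43477 leaf.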
